A study of Mus musculus with 24 samples.

Results

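The genes described here encode 10 proteins of glycolysis, namely Hk1, Hk2, Gpi1, Pfkl, Aldoa, Tpi1, Gapdh, Pgk1, Eno1 and the regulatory enzyme Pfkfb3. They were chosen by name, and 9 of the 10 had a row among the 16572 gene names of the expression table, each of them 1 row. The expression of Hk1 (GRCm38 chromosome 10, 62268855 to 62379908) was not analysed here, but its promoters are counted below. The values come from total RNA-seq of mouse oocytes grown without intact follicles, from ovaries of 7-day-old animals that the labels name C57BL/6 Barb and the methods describe as a cross of C57 Black6 and SV129. The oocytes were of class IV, the top size class, with a labelled diameter of 60 to 70 μm, and were collected after 9 days under 5% O2 (IV 5% O2) or after 14 days under 20% O2 (IV 20% O2). Both groups shared the starting age and the culture method, but the medium was changed more often under 5% O2, and the methods give a slightly smaller diameter for IV 20% O2. Pools of oocytes were used. The paper describes few granulosa cells attached to the immature oocytes, and theca cells that grew as colonies on the dish.

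Each condition had 2 libraries, and the table holds 1 pooled value per condition, so the differences below carry neither an SD nor a test, and oxygen, culture time and library cannot be told apart. The values are log2 of RPM, that is reads scaled to the same total in each column, and the implied depth was 132185258 reads for IV 5% O2 and 40875359 reads for IV 20% O2. Differences are IV 5% O2 minus IV 20% O2 on log2(RPM + 1), a scale that understates the change of low genes, and were computed for 14704 genes that reached a mean of 1 RPM. Ratios of RPM are given with exact 95% Clopper-Pearson intervals on the reads, which cover counting error only and compare these libraries rather than the conditions. Levels are compared between genes as RPM per kilobase of the longest coding transcript unless another length is named. In bulk RNA, fewer cells of a type and less RNA per cell cannot be told apart. The median difference of all genes was 0.26, and 18.7% of genes were at least 2-fold higher and 9.22% at least 2-fold lower in IV 5% O2, or 67% of these calls higher. Median-ratio scaling of the columns changed the counts from 2753 higher and 1356 lower to 1841 and 1926 (48.9% higher), and quantile normalization gave 1799 and 1831 (49.6% higher).

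Glycolysis converts glucose to pyruvate. Its first steps spend ATP to phosphorylate the sugar and cleave it into triose phosphates, and its later steps recover ATP and reduce NAD+. Growing oocytes take up little glucose themselves and use pyruvate supplied by the granulosa cells around them. In many cell types, low oxygen raises the transcription of glycolytic enzyme genes through hypoxia-inducible factors, which bind a short DNA core, ACGTG or GCGTG.

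The promoters of 4 genes that were at least 2-fold higher in IV 5% O2, and of Pgk1, a gene with the core whose difference was close to that of the median gene, are printed to show where this core lies. Sequences are from RefSeq on build GRCm38.p6, 5′ to 3′ on the strand of the gene, within the 250 bases before its start and without bases that GENCODE annotates as exonic. Capitals mark ACGTG and GCGTG on either strand, so that CACGT and CACGC are capitals as well.
Hk2, chr6:82774455-82774704, minus strand: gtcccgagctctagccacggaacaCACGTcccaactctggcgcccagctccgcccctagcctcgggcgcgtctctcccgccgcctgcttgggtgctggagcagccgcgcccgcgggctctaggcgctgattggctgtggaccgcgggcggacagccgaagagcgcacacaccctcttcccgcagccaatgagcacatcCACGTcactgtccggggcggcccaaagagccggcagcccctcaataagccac
Pfkl, chr10:78009808-78010004, minus strand: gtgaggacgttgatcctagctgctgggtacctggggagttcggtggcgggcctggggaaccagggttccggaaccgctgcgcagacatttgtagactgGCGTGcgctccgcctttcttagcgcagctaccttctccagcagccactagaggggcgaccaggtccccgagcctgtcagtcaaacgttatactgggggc
Aldoa, chr7:126799255-126799504, minus strand: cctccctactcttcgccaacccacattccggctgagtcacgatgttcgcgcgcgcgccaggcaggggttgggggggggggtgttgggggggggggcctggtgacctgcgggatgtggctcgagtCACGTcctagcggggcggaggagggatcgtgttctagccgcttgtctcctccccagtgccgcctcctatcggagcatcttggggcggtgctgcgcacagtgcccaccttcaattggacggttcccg
Tpi1, chr6:124814297-124814408, minus strand: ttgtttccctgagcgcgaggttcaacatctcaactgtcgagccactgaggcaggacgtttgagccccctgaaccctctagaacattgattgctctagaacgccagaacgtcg
Pgk1, chrX:106186850-106187099, plus strand: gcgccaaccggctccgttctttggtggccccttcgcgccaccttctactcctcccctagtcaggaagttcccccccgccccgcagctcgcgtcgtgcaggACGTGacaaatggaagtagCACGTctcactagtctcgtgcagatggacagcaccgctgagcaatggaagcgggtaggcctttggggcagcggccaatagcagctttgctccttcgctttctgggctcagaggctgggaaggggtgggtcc

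Hk2 held 2 copies of the ACGTG core, 226 and 52 bases before its start, and Pgk1 also held 2, at 150 and 131 bases. Pfkl held 1 GCGTG core 99 bases before its start. Of the 3 RefSeq promoters of Aldoa, the one printed held 1 ACGTG core at 126 bases, the third, which overlaps it, held the same core at 202 bases, and the first held none. No core was found in the 250 bases before Tpi1 or Gpi1. The promoter of Gapdh held 2 GCGTG cores, at 54 and 44 bases. By gene, 8 of the 10, Hk1 included, held at least 1 core in a promoter. This compares with 41.5% of all 27025 genes, which have fewer promoters each (1.22 against 1.60 on average). By promoter, 12 of 16 held a core, against 38.6% of all 32851. The 16 overlap in Aldoa and in Eno1, where promoters 2 and 3 share their 2 cores, and form 14 separate stretches, of which 10 held a core. CACGTG counts as 2 overlapping matches. All these counts cover the full 250 bases, exonic ones included, for the 10 genes and for all genes. In promoter 2 of Hk1, promoter 2 of Eno1 and promoter 1 of Pfkfb3, no core lay in the longest stretch without exonic bases. Promoter 3 of Eno1 is exonic throughout. The printed promoters are richer in G and C than the median promoter (52.4%), with 69.6% at Hk2, 67.6% at Aldoa, 62.8% at Pgk1, 59.2% at Pfkl and 58.4% at Tpi1 over the 250 bases. A match is a description of these letters and not a binding site.

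The second set of sequences shows coding stretches of 50 bases that occur elsewhere in the genome. Reads were paired and 100 bases long, so a repeat of 50 bases does not by itself keep a read from being placed. In Gpi1, for example, 25% of windows are repeated at 50 bases and 6.45% at 100, and in Aldoa 14.7% and 0%, so the shares at 100 bases are given for each gene below. For Gapdh and Eno1, the coding window within 1 exon with the most copies outside the gene is printed, from the GRCm38.p6 genome in the direction of transcription.
Gapdh, chr6:125162902-125162951, minus strand: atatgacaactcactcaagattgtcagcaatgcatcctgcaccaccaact
Eno1, chr4:150245123-150245172, plus strand: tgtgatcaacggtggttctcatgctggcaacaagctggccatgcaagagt

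The Gapdh window, in exon 4 of 7, occurred at 81 other places, of which 78 lie on annotated pseudogenes. The Eno1 window, in exon 7 of 12, had 5 copies, 4 of them on pseudogenes. Each of the 95 coding windows of Gapdh and each of the 120 coding windows of Pgk1 occurred elsewhere, whereas 21 of 126 coding windows of Eno1 did not. In Gapdh, the windows found nowhere else, 20 of 138, all began before the coding sequence.

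Among the 9 genes measured, 4 were at least 2-fold higher in IV 5% O2 (44.4%, against 18.7% of all genes) and 1 was at least 2-fold lower (11.1%, against 9.22%). The 4 higher genes were Hk2, Pfkl, Aldoa and Tpi1, the lower gene was Gapdh, and Gpi1, Pgk1, Eno1 and Pfkfb3 were less than 2-fold apart. The median difference of the 9 genes was 0.87 as deposited, or 0.61 above that of all genes, and 6 genes lay above and 3 below the median gene. Under median-ratio scaling and quantile normalization, these 4 genes also passed 2-fold upwards and Gapdh downwards. Summed over the 9 genes, the level was 699 RPM under 5% O2 and 327 RPM under 20% O2. Tpi1 alone held 34.2% of that sum in IV 5% O2 and 9.58% in IV 20% O2.

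**Figure D1:**
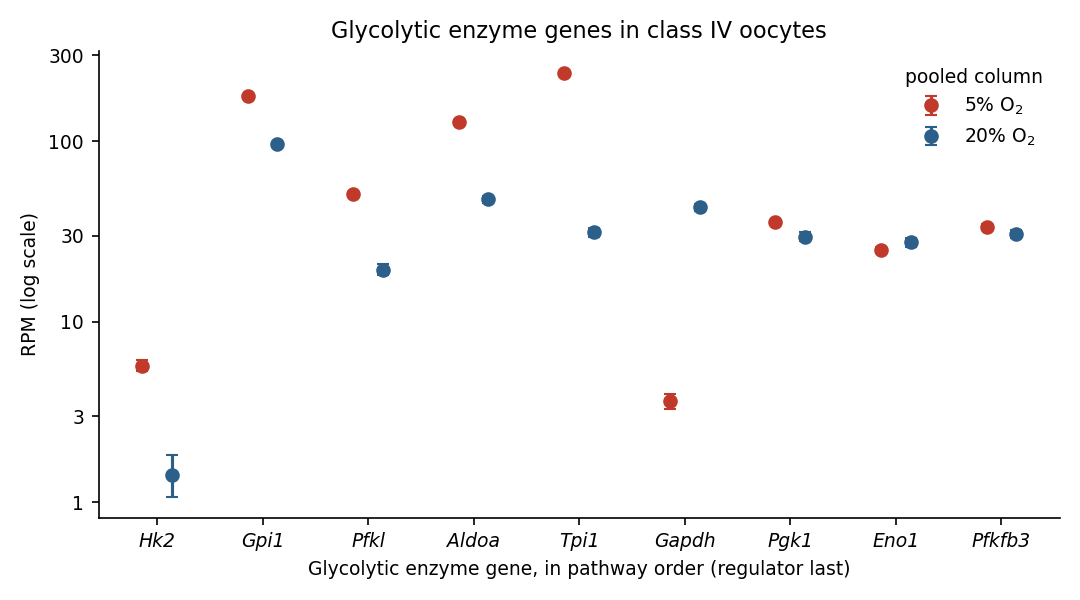
RPM on a log axis of the 9 measured glycolytic enzyme genes in the IV 5% O2 and IV 20% O2 columns, with exact 95% counting intervals, most of which are smaller than the points. Tpi1 (239 against 31.4 RPM) and Gapdh (3.62 against 43.2 RPM) stand farthest apart, in opposite directions.

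Hk2, on chromosome 6 (82725025 to 82774454), encodes hexokinase 2, which traps glucose in the cell as glucose-6-phosphate. It stood at 5.72 RPM under 5% O2, from 756 reads, and at 1.42 RPM under 20% O2, from 58 reads. The IV 5% O2 value was 4.03-fold higher (interval 3.08 to 5.36), a difference of 1.47 on the log2 scale that a pseudocount of 5 RPM brought to 0.74, under 2-fold. Hk2 was the lowest of the 9 genes per kilobase in both columns, at 1.04 and 0.257 RPM per kilobase, and it has the widest interval. With the union of exons, Gapdh was lower in IV 5% O2 (0.877 against 0.958). Adpgk, which phosphorylates glucose with ADP in place of ATP, was more abundant, at 36.5 and 29.0 RPM per kilobase.

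Gpi1, on chromosome 7 (34201330 to 34230336), encodes the isomerase that turns glucose-6-phosphate into fructose-6-phosphate. Its values were 177 RPM under 5% O2 and 96.2 RPM under 20% O2, a 1.84-fold higher value (interval 1.78 to 1.90) and a log2 difference of 0.87. This is above the median gene and under the 2-fold limit. Exons of an antisense lincRNA, Gm26762, overlap 11.5% of the exonic bases of Gpi1, and whether counting used strand is not given in the sources used here. Per kilobase, Gpi1 was the third of the 9 genes in IV 5% O2 (61.4). In IV 20% O2 it was the first (33.3, against 30.9 for Aldoa) with the longest coding transcript and the second, after Aldoa, with the other lengths (14.9 against 16.4 with the union of exons).

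Pfkl, on chromosome 10 (77986947 to 78010083), encodes the liver-type subunit of phosphofructokinase, the committed step of the pathway. Its 6735 reads under 5% O2 gave 50.95 RPM, and its 794 reads under 20% O2 gave 19.4 RPM. The value was 2.62-fold higher in IV 5% O2 (interval 2.44 to 2.83), a log2 difference of 1.35. The other phosphofructokinase genes went the other way by value. Pfkp, the platelet type, had 9.34 and 19.2 RPM in IV 5% O2 and IV 20% O2, and Pfkm, the muscle type, had 7.88 and 8.68 RPM, both named after their values were seen. Pfkp, at -0.97, lay just within 2-fold as deposited and passed it downwards with both other scalings (-1.24 and -1.12). Per kilobase, Pfkl thus held 73.2% of the phosphofructokinase RNA in IV 5% O2 and 40.5% in IV 20% O2, while the share of Pfkp was 12.1% and 36.1%. With the union of exons, Pfkl held 71.4% and 41.9%, and Pfkp 6.52% and 20.7%. The step as a whole, 18.7 against 12.9 RPM per kilobase, differed less than Pfkl itself.

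Pfkfb3, on chromosome 2 (11471433 to 11554077), encodes a bifunctional enzyme that makes fructose-2,6-bisphosphate, the activator of phosphofructokinase. It had 33.6 and 30.6 RPM, a ratio of 1.10 (interval 1.03 to 1.17) and a log2 difference of 0.13. This small difference was below that of the median gene and turned negative, to -0.15 and -0.02, with median-ratio scaling and quantile normalization. Among the genes that set the level of fructose-2,6-bisphosphate, Pfkfb3 held 20.3% and 20.1% of the RPM per kilobase. Tigar, which encodes a phosphatase that removes this activator, held the most, 63.0% and 57.03%, with 79.2 and 66.2 RPM.

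Aldoa, on chromosome 7 (126795234 to 126800751), encodes the aldolase that cleaves fructose-1,6-bisphosphate. Under 5% O2 it reached 129 RPM and under 20% O2 47.9 RPM, a 2.69-fold higher value (interval 2.56 to 2.82) and a log2 difference of 1.41. Aldoa held 96.2% of the aldolase RPM per kilobase in IV 5% O2 and 98.7% in IV 20% O2. The remainder was Aldoc, the brain-type aldolase, with 9.04 and 1.13 RPM, an 8.03-fold higher value in IV 5% O2 (interval 5.98 to 11.03). Both aldolase genes were therefore at least 2-fold higher in IV 5% O2.

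Tpi1, on chromosome 6 (124810586 to 124814296), encodes triosephosphate isomerase, which interconverts the products of aldolase. It drew 31619 reads under 5% O2, or 239 RPM, and 1282 reads under 20% O2, or 31.4 RPM. The value was 7.63-fold higher in IV 5% O2 (interval 7.21 to 8.07), and the log2 difference of 2.89 had rank 45 from the top among 14704 genes. Tpi1 was the most abundant of the 9 genes per kilobase in IV 5% O2 (149) and the fourth in IV 20% O2 (19.5), or 3 in order with the longest transcript of any kind. Of its windows of 100 bases, 7.28% occur elsewhere in the genome.

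Gapdh, on chromosome 6 (125161715 to 125166467), encodes glyceraldehyde-3-phosphate dehydrogenase, the step that reduces NAD+. It drew 479 reads under 5% O2, or 3.62 RPM, and 1764 reads under 20% O2, or 43.2 RPM. The value was 11.9-fold lower in IV 5% O2 (interval 10.8 to 13.2), with a log2 difference of -3.26, and only 0.871% of the genes tested had a lower difference. Its RPM per kilobase was 2.55 and 30.4, so that Gapdh lay at order 8 of the 9 genes in IV 5% O2 and at order 3 in IV 20% O2. Its longest coding transcript has 1420 bases, its longest transcript of any kind 3289 and the union of its exons 4133. With these longer lengths its level in IV 20% O2 was 13.1 and 10.4 RPM per kilobase, at order 6 and 5, and its order in IV 5% O2 was 8 and 9. Gapdhs, the sperm-type paralogue of the same step, had 3.59 and 0.930 RPM, a 3.86-fold higher value in IV 5% O2 (interval 2.77 to 5.52). Per kilobase, Gapdhs held 49.1% of this step in IV 5% O2 and 2.06% in IV 20% O2, or 71.8% and 5.24% with the union of exons. No 100-base window of Gapdhs occurs elsewhere, against 85.0% of those of Gapdh.

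The 50-base windows of Gapdh occurred at 206 other loci, of which 189 overlap annotated pseudogenes. Of the genes with a row, 4 share at least 10 such windows with Gapdh. Gm10358 had no reads in IV 5% O2, which allows up to 0.0227 RPM, and 1.52 RPM in IV 20% O2 (62 reads). Gm14133 had 0.454 and 1.74 RPM, and Gm3839 had 0.424 and 1.22 RPM. The fourth, Peli2, whose exons hold a Gapdh copy, had 2.00 and 2.23 RPM. With the reads of these genes added, Gapdh stood at 6.51 and 49.9 RPM and its log2 difference at -2.76.

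Pgk1, on chromosome X (106187100 to 106203699), encodes phosphoglycerate kinase 1, which makes the first ATP of the pathway. It had 35.7 and 29.7 RPM, a ratio of 1.20 (interval 1.13 to 1.28), and its log2 difference of 0.26 was close to that of the median gene. With median-ratio scaling the difference was -0.02. Pgk1 is the most repeated of the 9 genes, with 89.6% of its 100-base windows found elsewhere.

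Eno1, on chromosome 4 (150236721 to 150248879), encodes the alpha-enolase that forms phosphoenolpyruvate. Its levels of 24.9 RPM under 5% O2 and 27.6 RPM under 20% O2 gave a ratio of 0.903 (interval 0.844 to 0.967) and a log2 difference of -0.14. This is 0.40 below the median gene, and the sign stayed negative with both other scalings. Eno1b, a near copy in which 81.8% of the 100-base windows occur elsewhere, had 1.54 and 5.21 RPM, and shares 140 windows of 50 bases with Eno1. Per kilobase, Eno1 held 92.0% of the enolase RNA in IV 5% O2 and 79.1% in IV 20% O2, or 81.8% and 59.7% with the union of exons.

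**Figure D2:**
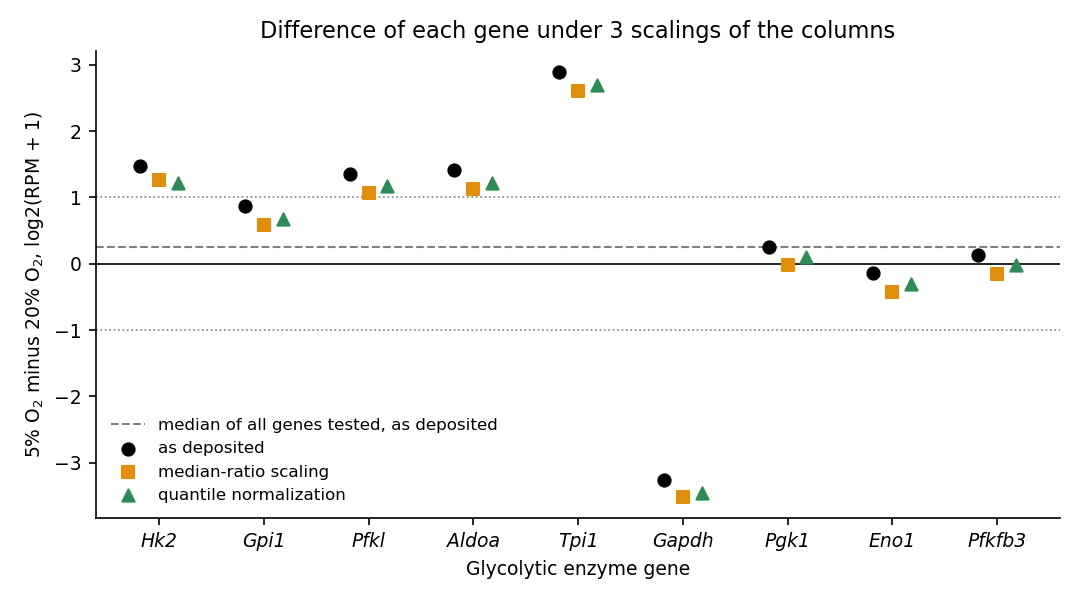
Log2(RPM + 1) difference, IV 5% O2 minus IV 20% O2, of each of the 9 genes as deposited and under 2 other scalings. The dashed line is the median of all genes as deposited (0.26) and dotted lines mark 2-fold. Tpi1, Hk2, Aldoa and Pfkl stay above 2-fold and Gapdh below it, while Pgk1 and Pfkfb3 lie near 0 and change sign.

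The 9 genes differed in how much of their sequence is repeated. Hk2, Pfkl, Aldoa and Pfkfb3 had no repeated 100-base window, Gpi1 had 6.45% and Tpi1 7.28%, and Eno1, Gapdh and Pgk1 had 59.1%, 85.0% and 89.6%. Across all genes tested, the median difference was -1.59 for the 409 genes whose windows were repeated at 50% or more, and 61.9% of them were at least 2-fold lower in IV 5% O2. The 11903 genes with no repeated window had a median of 0.31, and 6.69% of them were at least 2-fold lower. Gapdh lay below the lower quartile of the first group (-2.62), and Pgk1 and Eno1 lay above its upper quartile (-0.38). Among the 6 genes with under 10% repeated windows, 4 were at least 2-fold higher, none was at least 2-fold lower, and the median difference was 1.38. Of the 13527 genes so filtered, 19.5% were at least 2-fold higher and 6.91% lower, with a median of 0.30. How reads with several places in the genome were counted is not given in the sources used here, and the part of repeated sequence in the Gapdh value was not tested.

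**Figure D3:**
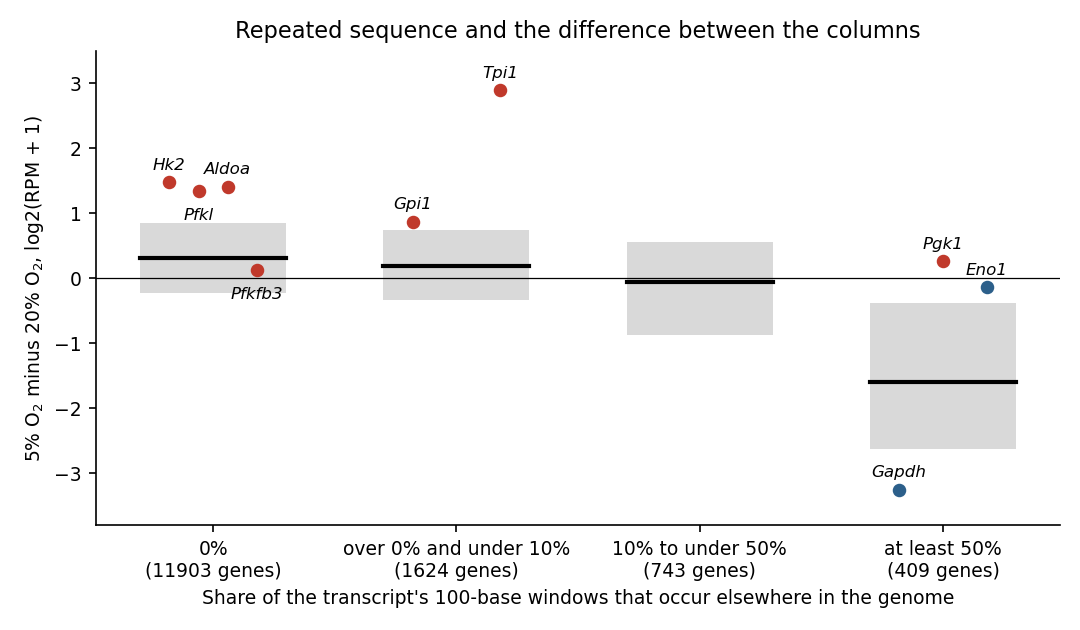
Log2(RPM + 1) difference of all genes in 4 classes of repeated sequence, as the interquartile range (grey box) and median (black line), with the 9 glycolytic enzyme genes as points. The median falls from 0.31 with no repeated window to -1.59 with at least 50%, where Gapdh, Pgk1 and Eno1 lie.

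The order of the 9 genes differed between the columns. In IV 5% O2, the RPM per kilobase ran from Tpi1 (149), Aldoa (83.0), Gpi1 (61.4), Pgk1 (19.6), Pfkl (13.7) and Eno1 (12.3) to Pfkfb3 (6.998), Gapdh (2.55) and Hk2 (1.04). In IV 20% O2, it ran from Gpi1 (33.3), Aldoa (30.9), Gapdh (30.4), Tpi1 (19.5), Pgk1 (16.2) and Eno1 (13.6) to Pfkfb3 (6.38), Pfkl (5.21) and Hk2 (0.257). The intervals of Aldoa and Gapdh overlapped in IV 20% O2, and those of all other neighbours in either order were separate. The highest gene stood 143-fold above the lowest in IV 5% O2 and 130-fold in IV 20% O2. Some of these positions depended on the length used. With the union of all annotated exons, the folds were 99.1 (Tpi1 over Gapdh) and 69.2 (Aldoa over Hk2), so that Gapdh took the place of Hk2 as the lowest gene in IV 5% O2 and Aldoa that of Gpi1 as the highest in IV 20% O2. With the longest transcript of any kind, the folds were 143 and 120, and Aldoa was again the highest gene in IV 20% O2. Tpi1, Aldoa and Gpi1 came first in that order in IV 5% O2 with all 3 lengths.

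**Figure D4:**
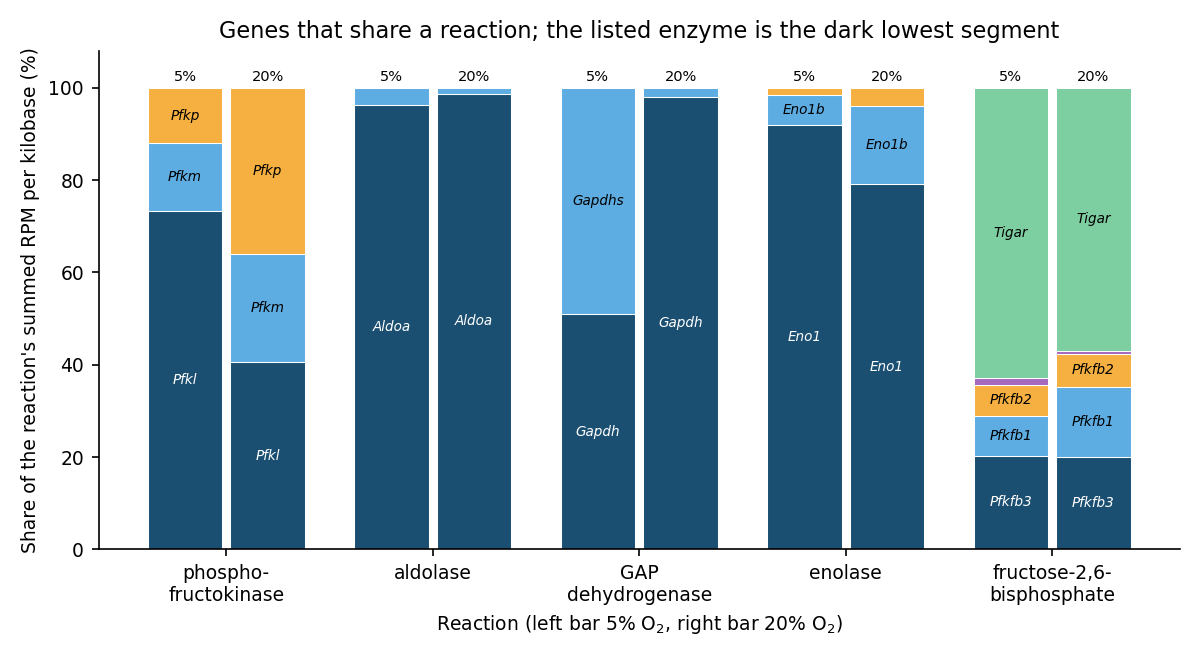
Share of RPM per kilobase held by each gene of 5 reactions in IV 5% O2 (left bars) and IV 20% O2 (right bars), with segments of 5% or less unlabelled. Pfkl holds 73.2% and 40.5% of the phosphofructokinase step, and Gapdh 50.9% and 97.9% of the GAP dehydrogenase (glyceraldehyde-3-phosphate dehydrogenase) step.

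The rest of glycolysis was taken from 22 further genes, of which 15 had a row and 14 reached a mean of 1 RPM. Of these 14, 4 were at least 2-fold higher in IV 5% O2 (28.6%, against 18.7% of all genes) and 2 were at least 2-fold lower (14.3%, against 9.22%). The balance of these counts changed with the processing, to 3 higher and 3 lower by median-ratio scaling, 3 and 4 by quantile normalization, and 5 and 4 with a pseudocount of 0.1. It became 3 and 0 with a pseudocount of 5 or under the limit on repeated windows, and 3 and 1 with a filter of 5 RPM. Their median difference was 0.14, or 0.12 below that of all genes (-0.12), turned negative with both other scalings, and was 0.26 under the limit on repeated windows. The 4 higher genes were Aldoc and Gapdhs, described above, with Bpgm and Pkm. Aldoc and Pkm passed 2-fold under both other scalings, whereas Bpgm stood at 0.95 by median ratio and Gapdhs at 0.95 by quantiles, each just under it. Pkm, the pyruvate kinase of the last step, had 824 and 256 RPM, 3.22-fold higher in IV 5% O2 (interval 3.16 to 3.29). Bpgm, which makes 2,3-bisphosphoglycerate in a side branch and has weak phosphoglycerate mutase activity, had 1453 and 613 RPM, 2.37-fold higher (interval 2.34 to 2.40). Per kilobase, Bpgm (654 and 276) and Pkm (339 and 105) stood above each of the 9 genes in both columns. As deposited, the lower genes were Eno1b and Pgam1, the phosphoglycerate mutase, which had 5.59 and 15.3 RPM. Pgam1 was 2.74-fold lower in IV 5% O2, and 89.9% of its 100-base windows are repeated, as in Gapdh and Pgk1.

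**Figure D5:**
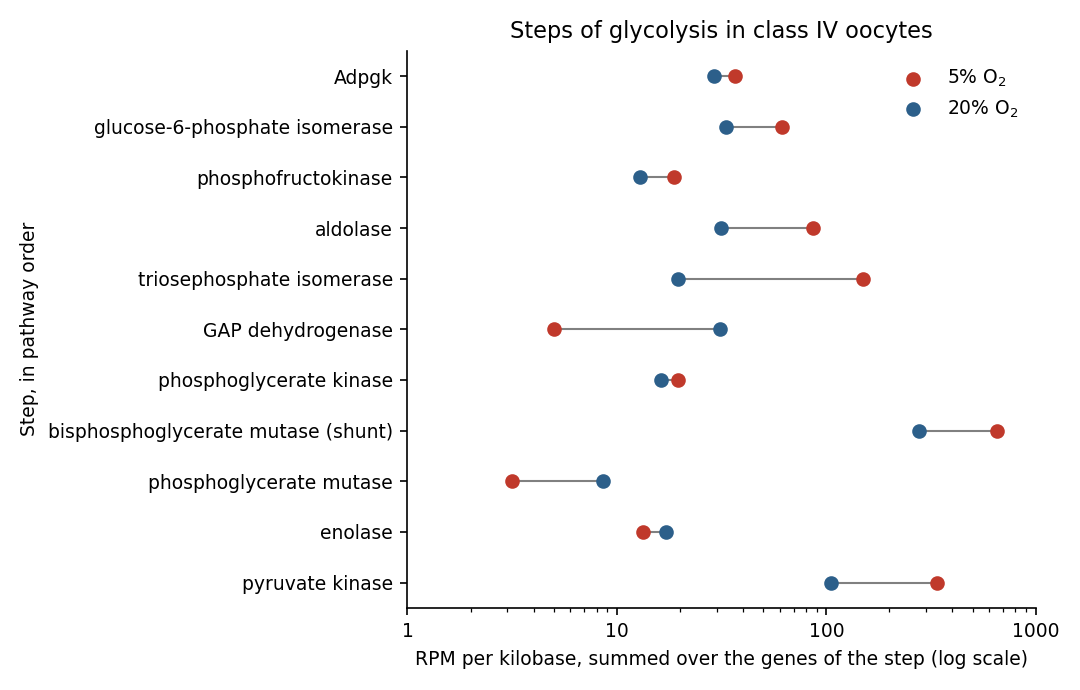
RPM per kilobase on a log axis, summed over the genes of each step drawn, in IV 5% O2 and IV 20% O2, in pathway order from the top. The order starts with Adpgk, and the hexokinase step is not drawn. Triosephosphate isomerase (149 against 19.5) lies farthest to the right of its IV 20% O2 value, and GAP dehydrogenase (5.01 against 31.0), phosphoglycerate mutase (3.15 against 8.61) and enolase (13.4 against 17.2) lie to the left.

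The pentose phosphate pathway and gluconeogenesis use the same sugar phosphates. Of 10 pentose phosphate genes tested, 2 were at least 2-fold higher in IV 5% O2 (20.0%, close to the 18.7% of all genes) and none lower, with a median difference of 0.40 that was 0.16 by median ratio and 0.18 by quantiles. These were Rpia, the ribose-5-phosphate isomerase (96.8 and 47.0 RPM), and Tktl2, a transketolase-like gene (24.1 and 5.77 RPM). Rpia, at 1.03, fell under 2-fold with both other scalings (0.74 and 0.85), which left Tktl2 alone. G6pdx, the entry enzyme of that branch and its most abundant gene per kilobase, had 325 and 277 RPM, a ratio of 1.17 (interval 1.15 to 1.20), so that G6pdx differed less than Gpi1, which uses the same substrate. Of 5 gluconeogenesis genes tested, 1 was at least 2-fold higher (20.0%, against 18.7% of all genes) and none lower, with a median of 0.11 that turned negative by median ratio (-0.17) and by quantiles (-0.07). This was Fbp2, a fructose-1,6-bisphosphatase that opposes phosphofructokinase, at 26.2 and 5.87 RPM. Fbp1, of the same activity, had 27.7 and 25.6 RPM. Pck2, which makes phosphoenolpyruvate in mitochondria, had 1.10 and 2.30 RPM and passed 2-fold downwards by quantile normalization only (-1.02).

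Markers of cell types differed between the columns in different directions. All 12 oocyte markers had reads in both columns, and summed to 9986 RPM under 5% O2 and 13739 RPM under 20% O2, and 3 of the 12 were at least 2-fold lower in IV 5% O2 (25%, against 9.22% of all genes). Of 14 theca and stroma markers, 10 had a row, and their sum was 45.3 RPM under 5% O2 (0.431 to 16.4 per gene) against 5.48 RPM under 20% O2 (0 to 2.30), with 3 at 0 reads in IV 20% O2. All 10 had the higher value in IV 5% O2, also under both other scalings, against 63% of all genes with a row as deposited, 51.6% by median ratio and 52.8% by quantiles. Only 2 of the 10 reached 1 RPM in IV 20% O2, so most that passed the filter on low values did so through IV 5% O2. Of 14 granulosa markers, 7 had a row, with sums of 42.9 and 29.8 RPM, and 6 of the 7 had the higher value in IV 5% O2, or 5 under either other scaling, where Nr5a2 (18.7 and 17.6 RPM) turned lower. Among them, Inhba had 348 reads under 5% O2 and 31 under 20% O2, Gja1 209 and 3, and Inha 89 and 0, while Kitl had 10.2 and 5.58 RPM and Cyp19a1 9.12 and 5.70 RPM. The exception was Fshr, with 0 reads in IV 5% O2 and 6 in IV 20% O2. Macrophage markers summed to 17.9 and 21.1 RPM over 3 genes, a direction set by Csf1r (9.28 and 15.0 RPM), since Cd68 (7.18 and 6.14 RPM) and Lyz2 (184 and 0 reads) were higher by value in IV 5% O2, although the small difference of Cd68 turned to -0.06 by median ratio. Endothelial markers summed to 117 and 284 RPM over 4 genes, a direction set by Vwf (55.5 and 248 RPM). The other endothelial markers had the higher value in IV 5% O2, with 45.9 and 32.7 RPM for Pecam1, 13.8 and 3.40 RPM for Tek, and 172 and 0 reads for Kdr. The erythroid marker measured, Alas2, had 1.32 and 1.57 RPM. The theca and stroma markers with a row were thus higher by value in the same column as Tpi1, Hk2, Aldoa and Pfkl. So were 6 of the 7 granulosa and 3 of the 4 endothelial markers, against 63% of all genes with a row as deposited. The endothelial count is near that share, and the endothelial sum was lower in IV 5% O2. The part of such cells in the values of Tpi1, Hk2, Aldoa and Pfkl was not tested.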

How the data were processed

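Total RNA was depleted of ribosomal RNA and sequenced as strand-specific paired-end libraries. Alignment to mm10 was done by the authors with TopHat (TopHat2 2.0.9 in the submitters' processing notes), reads were merged across exons with SeqMonk, and the deposited values are log2, in a single pooled column for each condition. How the libraries were combined, and whether counting used strand, is not given in the sources used here. The methods describe a correction for length, but after the log2 was undone 99.93% and 99.98% of the values were within 0.05 of a whole number of reads of equal worth, so they were read as RPM. Genes lacking reads carry a fixed minimum and were set to 0. A further value column (1) that matches no mapped sample was left out. Reads on genes numbered 109629353 and 29754908, and a count of 0 allows 3 reads (0.0227 and 0.0734 RPM).

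All coordinates are GRCm38, and the rows of the 9 genes equal their GENCODE M21 spans. Windows of 50 and 100 bases, every 10 bases of the longest coding transcript, were called repeated if they occurred outside the gene in the 22 chromosome sequences, and places within 2000 bases were 1 locus. On the other strand, exons of the lincRNA Gm26762, not analysed here, overlap 741 exonic bases of Gpi1 (11.5%), and those of Iffo1, Spsb2 and Fam57b overlap Gapdh, Tpi1 and Aldoa by under 2%. Without strand, reads there cannot be told apart. The test planned for a value per library could not be run, so folds of 2 were counted. All 10 members were to be named, with genes of other lists that led their reaction or were at least 2-fold apart, and genes sharing exonic sequence at 1% or more of a member's value. Genes sharing 1 window with Gpi1 (59) or Pfkfb3 (3) are counted only. Some items of these lists and sequences are not reported here. The members and lists were chosen with earlier results of these data known. The window and interval code was checked on simulated data. The tools were pandas 2.3.3 and numpy 2.4.6, with scipy 1.17.1 for intervals, numba 0.67.0 for the genome scan and matplotlib 3.10.9 for plots, all under Python 3.11.15.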

Additional observations from a re-analysis of the deposited data

How the results depend on the processing

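The alternatives were other pseudocounts (0.1 and 5), leaving out the filter or raising it to 5 RPM, scaling by median ratio or by quantiles, summing the rows of a name, a limit of 10% repeated windows and sums with genes that share sequence. Of 86 differences of single genes, 57 stayed within the counting error of the value given, 25 moved in size and 4 changed sign. With median-ratio scaling Pgk1 turned to -0.021 and Pfkfb3 to -0.15, and Pfkfb3 turned to -0.015 with quantiles and to -0.14 when summed with genes that share a window of 50 bases. Hk2 fell to 0.74 with a pseudocount of 5 and out of the higher filter, which left 3 genes at least 2-fold higher in place of 4. The number lower stayed at 1, except that it was 0 under the limit on repeated windows, which leaves Gapdh out. The median difference of the 9 genes was also 0.74 with that pseudocount, 0.57 with the higher filter, 0.59 by median ratio, 0.67 by quantiles, 1.38 under the limit on repeated windows and 0.26 when summed with genes that share sequence. That last sum adds 59 genes to Gpi1 through 1 window each. With sums only over genes that share at least 10 windows, chosen after seeing the data, the median stayed at 0.87. Over all genes, 1202 were higher and 706 lower with a pseudocount of 5, 1691 were higher with the higher filter and 1799 by quantiles. The fold between the highest and lowest gene per kilobase in IV 20% O2 was 69.2 with the union of exons, and the length of the longest transcript of any kind, also added after seeing the data, was tried too. The median of the other glycolysis genes was -0.14 by median ratio and -0.037 by quantiles, and that of the gluconeogenesis genes -0.17 by median ratio and -0.072 by quantiles. No paired analysis was possible because each condition has 1 pooled column, and leaving out a replicate was not run for the same reason. The lower depth of IV 20% O2 limits Hk2 most, with 58 reads.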
